A study of Mus musculus with 10 samples.

Results

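Gene expression was compared between day 24 and day 8 of differentiation of mouse embryonic stem cells (strain C57BL/6) that had not received DCI. The comparison took 4 of the 10 arrays of the study, chosen from the labels. They were day 8 without an added factor (control), day 8 with KGF, day 24 control and day 24 with KGF. KGF is keratinocyte growth factor, also called FGF7, a mitogen of epithelial cells. The labels do not spell out DCI, which is read here as dexamethasone with elevated cAMP, after the title of the series, and arrays with it entered only the estimate of the spread. By its title the study aimed at alveolar type II cells, which make the surfactant of the lung. Each condition had 1 array and no replicate, and the labels describe no sorting of the cultures.

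Stem cells that leave the pluripotent state in culture form derivatives of all germ layers side by side. The earliest blood cells made by the embryo and by such cultures are primitive erythroid cells, which carry embryonic globins, and macrophages are among the blood cells that persist in long cultures. Mesoderm gives cardiac, smooth and skeletal muscle and matrix-producing fibroblasts, while endoderm gives liver, gut and lung epithelium. As cells mature, genes of cell division and of the fetal growth program usually decline.

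Expression is given as log2 values, so that a difference of 1 is 2-fold, and every difference is day 24 minus day 8, averaged over the control pair and the KGF pair. Errors are standard errors (SE) of the fit in limma, and a gene was called at an adjusted p under 0.05. Values are of the brightest probe set of each gene, and other probe sets are given for only some genes. The gene sets drawn on for the text held 146 called genes with several probe sets. Of these, 72 had another with under 0.5 times the change or the opposite sign. Without replicates, the p-values of the day 24 minus day 8 difference rest on how far the 5 matched pairs of control and KGF arrays departed from a common KGF effect. That spread may be technical. The KGF-by-day p-values rest on fewer pairs, as described there. One array, the day 8 control, was unlike the others in signals that check the RNA and its labelling. Between 3′ and 5′ probe sets its signal differed by 0.44 for Gapdh (-0.02 to 0.12 elsewhere), by 1.05 for Actb (0.46 to 0.62) and by 5.34 for the dap spike-in (1.49 to 2.998). Without that array 8743 genes were called, 8384 of them among the 9824 called with it, while its part in single results was tested only by leaving it out.

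Of 18193 genes, 9824 (54.0%) were called, 4681 higher (25.7%) and 5143 lower (28.3%) at day 24. These shares are the background for every count of listed genes below. The median difference over all genes was 0.0067 and the median SE 0.13. Of the called genes 9823 moved in the same direction in both pairs, and the exception, Txndc5, is described with the KGF results. The call was made on the mean of these same pairs and so favours that agreement, which is no replication. Among all 18193 genes, called or not, the day 8 and day 24 values did not overlap in 13613 (74.8%). With a 2-fold change in addition, 2095 genes (11.5%) were higher and 1532 (8.42%) lower, in all 3627 (19.9%). Changes of at least 8-fold were found in 445 genes that rose and 67 that fell. The split into higher and lower depended on the scaling. After each array was centred on the median of 11 housekeeping genes, 2225 genes were higher and 11858 lower. With that, 15.8% of the calls were higher, against 47.6% in the deposited scaling and 41.5% after a second quantile normalization. The housekeeping centring moved the median of all genes by -0.58, and the differences below are relative to the array as the authors scaled it. The 11 genes did not hold still: their own differences had a median of -0.12, and B2m rose by 2.50 while Tfrc, the transferrin receptor, fell by 1.26. The gene in the middle also changed. It was B2m on the day 8 control array (10.27) and Hprt on both day 24 arrays (10.72 and 10.85). Hprt was itself called higher, by 1.41, so this centring is a weak reference wherever it is cited below.

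**Figure D1:**
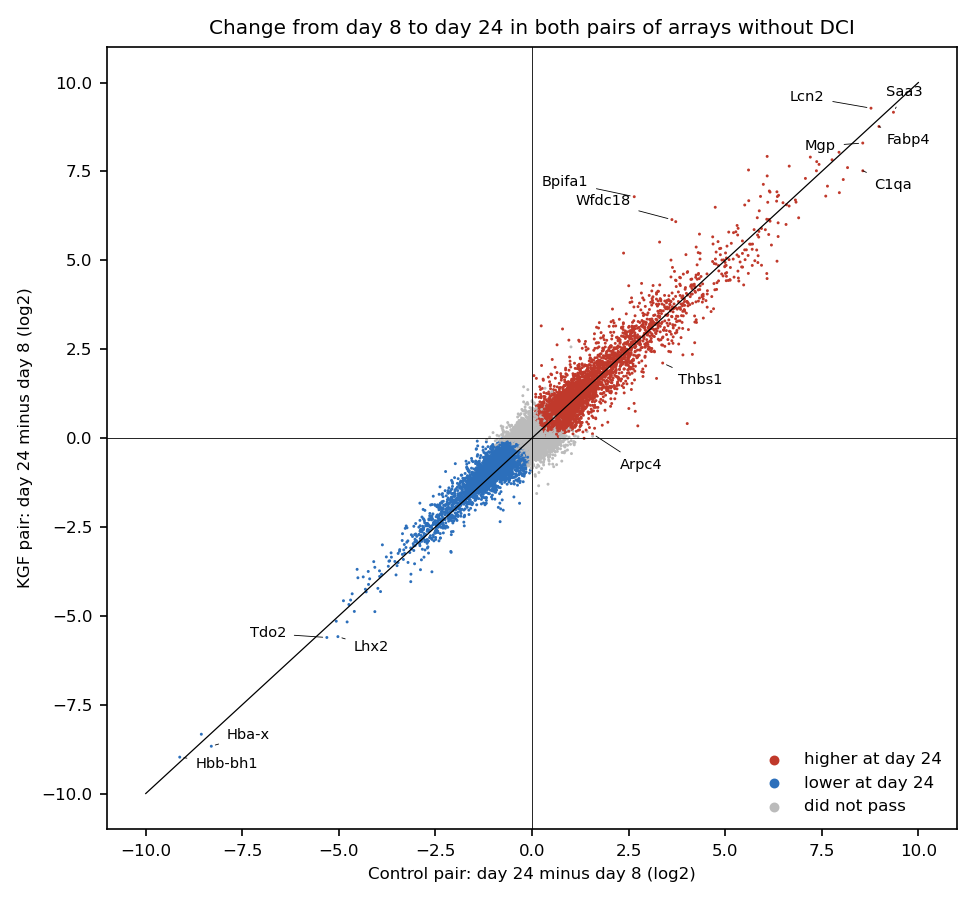
Each point is 1 of 18193 genes, with the day 24 minus day 8 difference (log2) of the control arrays on the horizontal axis and that of the KGF arrays on the vertical axis; red genes were called higher, blue genes lower, grey genes did not pass, and the line marks equal change. Both pairs gave nearly the same picture, with Saa3 and Lcn2 at the top, the embryonic globin genes at the bottom, and Bpifa1, Wfdc18 and Arpc4 off the line.

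The largest falls were those of the primitive erythroid genes, a list in which 13 of 18 measured members were lower and 1 higher (Lmo2, by 0.58, chosen here after its value was seen), with a median of -3.28. In bulk cultures fewer cells of a type and less RNA per cell cannot be told apart, here and below. Hbb-bh1, an embryonic beta-like globin, read 13.60 in the day 8 control and 13.52 with KGF, then 4.48 and 4.54 at day 24. It thus went from among the brightest signals of the table to below the median of all values, 5.27, a fall of 9.05 ± 0.42 (SE; 529-fold, adjusted p = 1.39e-08). The embryonic alpha-like globin Hba-x read 13.68 and 13.67 at day 8 and 5.37 and 5.00 at day 24, a 359-fold fall. Hbb-y, the other embryonic beta-like globin, fell 349-fold, from 12.48 and 12.43 to 3.92 and 4.10. Globin genes are similar in sequence, and how far their probe sets share signal was not tested.

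Genes of the red cell membrane and of erythroid transcription followed the globins. Slc4a1, the band 3 anion exchanger, read 8.26 and 8.31 at day 8 and 3.47 and 3.13 at day 24. Both day 24 values lay near the bottom of the scale, and another of its probe sets gave -0.07. Hemgn, a nuclear protein of blood progenitors, fell by 4.63 ± 0.14, and Nfe2, a subunit of the factor that drives globin genes, by 4.08 ± 0.15. The fall was early. At day 17 Hbb-bh1 read 6.82 in the control and 4.73 with KGF, Hba-x 5.96 and 5.20, and Hemgn 2.43 and 2.66. Of the other blood genes, Itga2b, the platelet integrin that also marks early blood progenitors, fell by 1.37, and Clec1b, a platelet and myeloid lectin receptor, by 4.48 ± 0.20. The platelet chemokine genes Ppbp and Pf4 rose by 2.45 and 1.42, and Pf4 did not pass when day, KGF and DCI were fitted as additive effects (0.87, adjusted p = 0.166). The list of mast cell, lymphoid and platelet genes had 6 of 17 higher, 4 lower and a median of 0.20, or -0.38 under the housekeeping scaling.

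**Figure D2:**
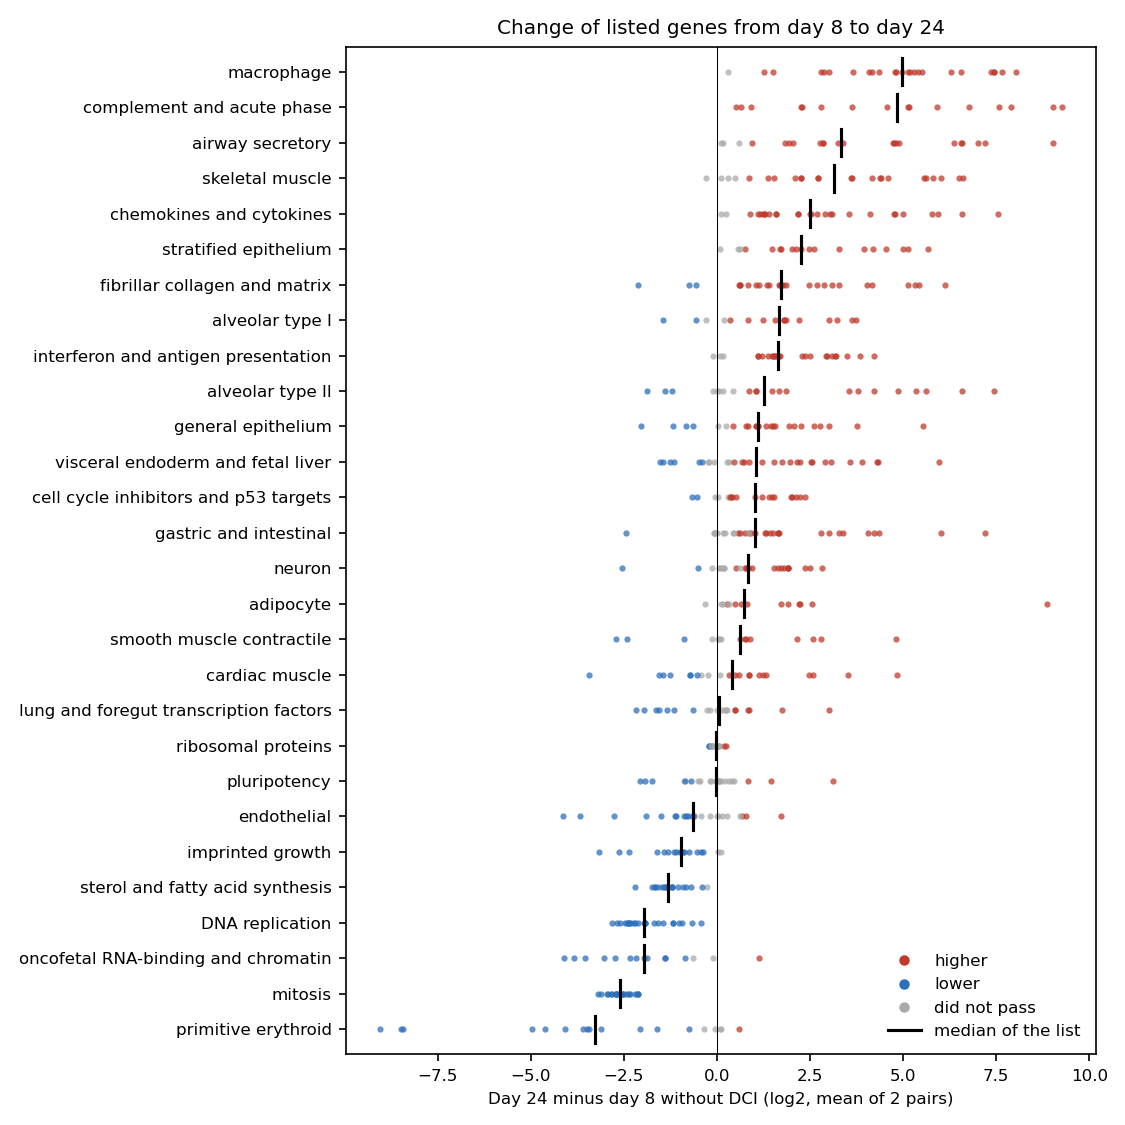
Each point is 1 measured gene of the list named at the left, placed by its day 24 minus day 8 difference (log2, mean of the 2 pairs); red genes were higher, blue lower, grey did not pass, and the black bar is the list's median. Lists of macrophage, acute phase and airway secretory genes lie far to the right, and mitosis, oncofetal and primitive erythroid genes far to the left.

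Cell division genes fell without exception among those listed. All 23 mitosis genes were lower, with a median of -2.60 and a narrow range, and so were all 25 DNA replication genes, with a median of -1.96. Bub1, a kinase of the spindle checkpoint, read 10.43 and 10.39 at day 8, 9.12 and 8.92 at day 17, and 7.26 and 7.17 at day 24, a fall of 3.19 ± 0.08 (9.15-fold, adjusted p = 1.92e-10). The spindle checkpoint kinase Ttk fell by 3.12 ± 0.12, the mitotic kinase Plk1 by 2.96 ± 0.11, the kinesins Kif20a and Kif11 by 2.93 and 2.84, and Birc5, of the chromosomal passenger complex, by 2.82. The other probe sets of Bub1 and Ttk gave smaller falls, -1.25 and -1.68. Mki67, the proliferation marker Ki-67, read 10.91 and 10.74 at day 8 and 8.30 and 7.92 at day 24. The percentage of the fall reached by day 17 was 43.5 for Bub1, 41.9 for Ttk, 51.2 for Plk1 and 32.2 for Mki67.

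In the replication machinery, Rrm2, the small subunit of ribonucleotide reductase, fell by 2.81 ± 0.07, from 11.34 and 11.20 to 8.61 and 8.31. Cdc6, which loads the replicative helicase, fell by 2.70, and the helicase subunits Mcm5 and Mcm2 by 2.62 and 2.43. Gins1, of the active helicase complex, fell by 2.46 and Mcm10 by 2.39, although other probe sets of these genes gave -0.38 and between -0.27 and 0.02. Genes that restrain the cycle went the other way: 14 of 19 cell cycle inhibitors and p53 targets were higher and 2 lower (Cdkn1b and Cdkn1c, by 0.68 and 0.54). Cdkn2a, which encodes p16 and p19Arf, read 5.88 and 6.55 at day 8 and 8.45 and 8.71 at day 24. It rose 5.15-fold, Cdkn2b, encoding p15, rose 4.68-fold and Cdkn1a, encoding p21, 3.94-fold. The immediate p53 target Btg2 rose by 2.03 and the stress genes Gadd45b and Gadd45a by 2.11 and 1.54.

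The promoters of mitosis genes are known to carry CCAAT boxes, which bind NF-Y, and cell cycle homology regions. Windows of 250 bases before the RefSeq start (assembly GRCm38.p6) were searched on both strands in the 14452 genes with an entry. The letters CCAAT were found in 14 of the 19 mitosis genes with a window (73.7%) and in 39.4% of all genes. TTTGAA, the core of the cell cycle homology region, was found in 7 of 19 (36.8%) against 14.1%. The 150 bases before the start are printed here for Bub1, Ttk and cyclin B2, Ccnb2, with the CCAAT boxes of either strand in capitals. Bub1 and Ttk fell most of the list on the probe sets used, and Ccnb2 was chosen for its 3 boxes. Bub1 lies on the minus strand (chr2:127831860-127832009), Ttk on the plus strand (chr9:83834539-83834688) and Ccnb2 on the minus strand (chr9:70421555-70421704).
Bub1: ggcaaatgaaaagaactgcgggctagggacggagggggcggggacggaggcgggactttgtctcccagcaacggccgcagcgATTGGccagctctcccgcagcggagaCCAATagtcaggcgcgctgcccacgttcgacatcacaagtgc
Ttk: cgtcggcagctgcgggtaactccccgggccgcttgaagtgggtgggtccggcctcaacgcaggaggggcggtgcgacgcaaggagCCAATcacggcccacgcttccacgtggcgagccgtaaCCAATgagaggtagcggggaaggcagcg
Ccnb2: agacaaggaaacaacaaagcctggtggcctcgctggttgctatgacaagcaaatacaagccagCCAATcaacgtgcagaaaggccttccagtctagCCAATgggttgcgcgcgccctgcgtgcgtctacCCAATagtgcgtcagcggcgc
Bub1 and Ttk hold 2 boxes each and Ccnb2 holds 3, all within 90 bases of the start. Such matches describe the letters and are no evidence that a factor bound.

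Oncofetal genes, which are active in embryonic tissues and silenced later, fell as a group. Of 15 listed, 12 were lower and 1 higher (Dnmt3l, by 1.12, chosen after its value was seen), with a median of -1.96. Hmga2, a chromatin protein of proliferating embryonic cells, read 11.22 and 11.44 at day 8 and 7.23 and 7.21 at day 24. Both day 17 values, 8.71 and 8.71, lay between those of the other days. Its fall was 4.11 ± 0.09 (17.3-fold, adjusted p = 5.41e-11). Lin28a, an RNA-binding protein that blocks the maturation of let-7 microRNAs, read 8.96 and 8.94 at day 8 and 5.01 and 5.20 at day 24, and had already reached that level at day 17 (4.79 and 5.32). Trim71, itself a let-7 target, fell by 3.54 ± 0.12, the maintenance methylation factor Uhrf1 by 3.03 ± 0.09, the zinc finger factor Sall4 by 2.73 and Igf2bp3, an RNA-binding partner of Igf2 transcripts, by 2.33.

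Pluripotency genes were already low at day 8 and moved both ways, 3 higher and 5 lower of 23, with a median of -0.02. Pou5f1, which encodes Oct4, read 5.60 and 5.79 at day 8 and 3.93 and 3.97 at day 24. Those day 8 values lay close to the median of the table, and the fall of 1.74 ± 0.29 came after day 17, where the values were 5.34 and 6.00. Nanog, at 5.31 and 5.52 against 4.59 and 4.48, did not pass (-0.88 ± 0.42, adjusted p = 0.0983). It did pass with only the 4 compared arrays, with only the arrays without DCI, and under both other scalings. The Nodal co-receptor gene Tdgf1 fell by 2.07 and Dppa4 by 1.92. The rises were those of Klf4, Klf2 and Sox2, factors that are also active in differentiated cells. Klf4, a factor of epithelial barriers as well as of stem cells, read 6.68 on both day 8 arrays and 9.72 and 9.88 at day 24 (8.72-fold). Of 23 genes of the primitive streak and germ layers 5 fell and 2 rose. The Wnt inhibitor Dkk1 fell by 2.31, Hand1, of lateral mesoderm, by 1.60 and Nodal by 1.18, while Mixl1 stood at -0.05 ± 0.17 and did not pass.

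Of 18 imprinted growth genes 16 fell and none rose, with a median of -0.98. Peg10, a retrotransposon-derived gene of placenta and embryo, read 6.81 and 7.98 at day 8 and 4.22 on both day 24 arrays. The day 8 values differed from each other by more than 1 log2 unit and still lay far above day 24 (-3.18 ± 0.27). Nnat fell by 2.65, the growth restrainer Phlda2 by 2.37, the growth factor scavenging receptor Igf2r by 1.62, Peg3 by 1.43 and Mest by 1.32. Igf2, the fetal growth factor itself, did not move with them. It read 13.79 and 13.78 at day 8 and 13.79 and 13.84 at day 24 (0.03 ± 0.05, adjusted p = 0.666), near the top of the scale, where arrays compress differences, and another probe set gave -0.29.

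Genes of sterol and fatty acid synthesis fell in 19 of 20 cases, with a median of -1.32. The exception was Insig1, the feedback regulator of the pathway (-0.26), which did not pass and was chosen after its value was seen. Lss, lanosterol synthase, read 9.61 and 9.06 at day 8 and 7.11 and 7.16 at day 24, a fall of 2.20 ± 0.15. Dhcr7, of the last step to cholesterol, fell by 1.74, squalene synthase, Fdft1, by 1.67, Mvd, of the mevalonate branch, by 1.66 and the desaturase Scd2 by 1.59. The fall was complete by day 17 for Dhcr7 and Mvd, which read 7.52 and 7.81, and 6.67 and 6.77, on that day. The letters TCACNCCAC of the sterol regulatory element were found in 1 of 15 promoter windows of the list (6.67%), Hmgcs1, against 1.27% of all genes. CCACACCC, the CACCC box of globin genes, was found in 0 of 14 windows of the primitive erythroid list, against 4.22%.

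Endothelial genes divided. Of 22, 12 fell and 3 rose (Lyve1, Pecam1 and Robo4), with a median of -0.65. Tek, the angiopoietin receptor, read 9.58 and 9.34 at day 8 and 5.21 and 5.44 at day 24, a fall of 4.14 ± 0.17 (17.6-fold). Kdr, the receptor for VEGF that also marks early mesoderm, fell 12.9-fold, from 9.89 and 9.80 to 6.37 and 5.95. Von Willebrand factor, Vwf, fell by 2.76 and the fenestral diaphragm gene Plvap by 1.92. The junctional cadherin gene Cdh5 stood at -0.18 ± 0.16 and did not pass. Pecam1 read 5.38 and 6.21 at day 8 and 6.53 and 6.63 at day 24 (0.79 ± 0.29, adjusted p = 0.0395). Without the day 8 control array the difference was 0.29. It was 0.83 without the day 24 control array and 0.74 without the day 24 KGF array. The call was lost in 9 of the alternatives, these among them. Lyve1, of lymphatic vessels and some macrophages, rose by 1.72, and did not pass in the additive fit (0.97, adjusted p = 0.241).

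The other genes among the 15 largest falls came from no single list. Lhx2, a homeobox factor, read 9.76 and 9.64 at day 8 and 4.73 and 4.05 at day 24 (-5.31 ± 0.25, 39.6-fold). The apelin receptor gene Aplnr, of early mesoderm and vessels, fell by 4.74 ± 0.12 and the ligand gene Bmp5 by 4.73 ± 0.16. Has2, a hyaluronan synthase, fell by 4.31 ± 0.17. Hsd11b2, which inactivates glucocorticoids, read 11.50 and 11.73 at day 8 and 6.43 and 6.58 at day 24. Tdo2, tryptophan dioxygenase, fell by 5.46 ± 0.22, and other probe sets gave -1.67 and -1.13. Fndc3c1, Asb4 and Nepn, the remaining genes of the 15 largest falls, fell by 4.71, 4.52 and 4.28. Tbx20, a factor of the early heart, read 9.90 and 9.68 at day 8 and 6.02 and 6.67 at day 24, and Myocd, the coactivator of smooth muscle genes, fell by 2.70, while its other probe set gave -0.22.

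Signalling pathways showed no common direction. In the TGF-beta and BMP list 10 rose and 8 fell of 24, with a median of -0.16. Ltbp2, a microfibril protein related to the TGF-beta binding proteins, read 4.40 and 4.47 at day 8 and 10.54 and 10.62 at day 24, a 70.5-fold rise. The activin subunit gene Inhbb rose 26.5-fold and the BMP relative Gdf10 11.2-fold, while Tgfb2 fell 7.24-fold and the inhibitory Smad6 2.78-fold. In the Wnt list 12 rose and 8 fell of 25, with a median of 0.04 that turned negative under both other scalings. Among ligands Wnt2 fell by 2.83 and Wnt4 rose by 1.95. Among inhibitors Sfrp2 rose by 2.27 and Nkd2 by 1.58, and the receptor Fzd2 fell by 1.46.

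**Figure D3:**
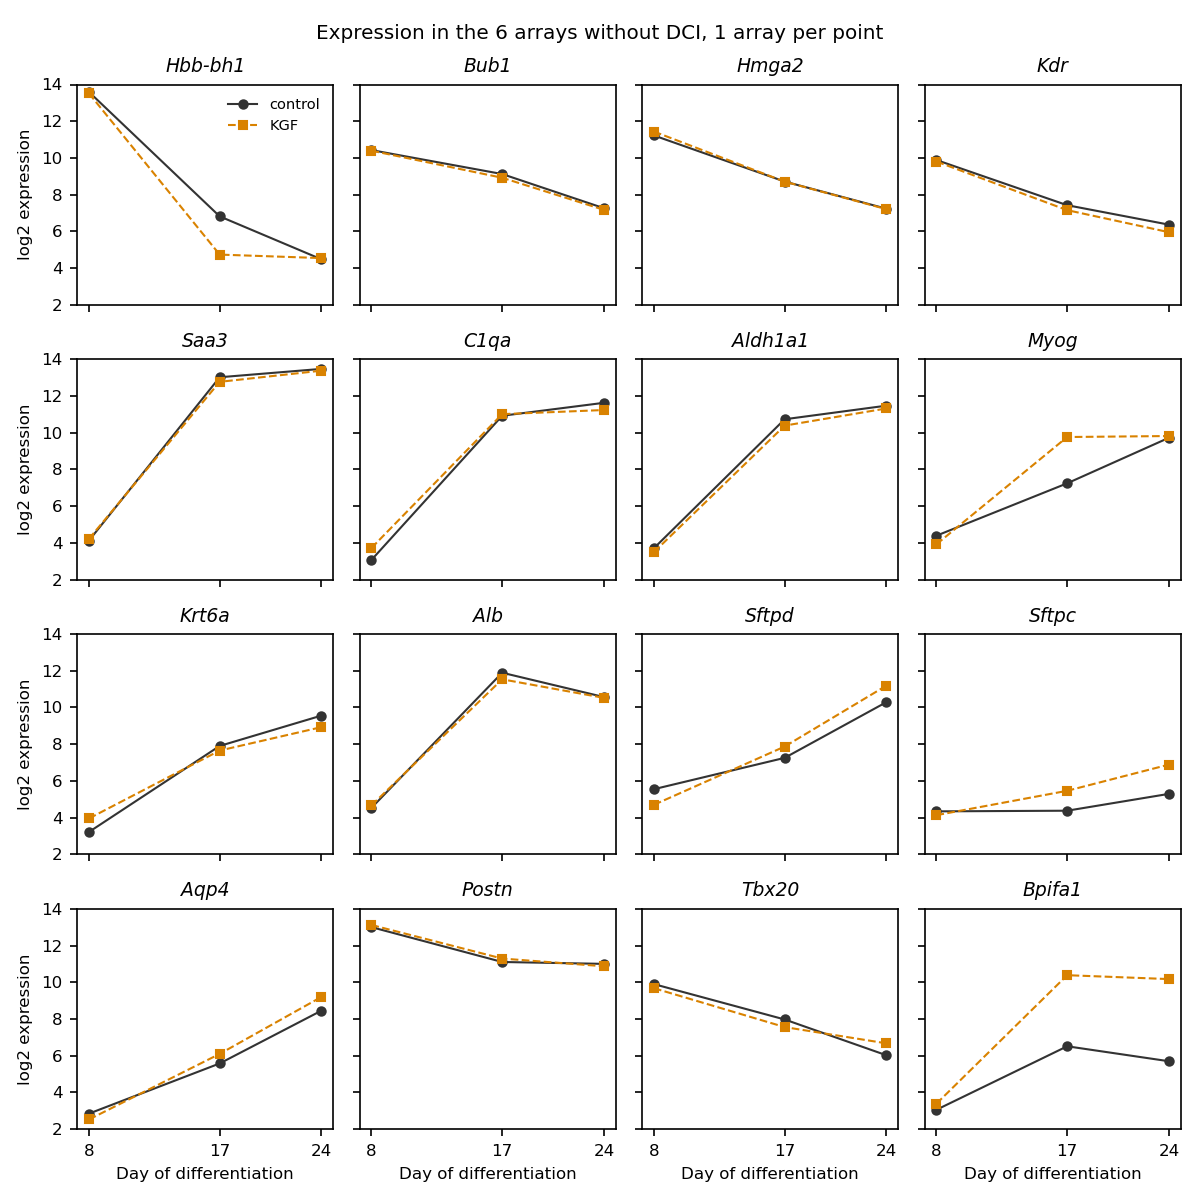
Each panel shows 1 gene in the 6 arrays without DCI, with log2 expression against the day of differentiation, black circles for control arrays and orange squares for KGF arrays, 1 array per point. Hbb-bh1 falls mostly before day 17 while Bub1 goes on falling to day 24, Saa3 and C1qa rise mostly before day 17, and Bpifa1 separates the KGF arrays from the controls at days 17 and 24.

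The 2 largest rises of single genes, Saa3 and Lcn2, were of acute phase genes. All 16 measured members of the acute phase and complement list were higher, with a median of 4.85. Saa3, an acute phase serum amyloid A, read 4.12 and 4.21 at day 8 and 13.48 and 13.38 at day 24, a rise of 9.26 ± 0.08 (613-fold, adjusted p = 1.19e-13). Both day 17 arrays were already at 13.02 and 12.77. Lcn2, an iron-scavenging lipocalin of inflamed epithelia and neutrophils, rose 522-fold, from 3.48 and 3.40 to 12.25 and 12.68. It went on rising after day 17, where it read 8.52 and 8.83. The complement protease genes C1s1 and C1ra, which are made by fibroblasts and liver cells, rose 237-fold and 190-fold, haptoglobin, Hp, 108-fold and ceruloplasmin, Cp, 60.4-fold.

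Macrophage genes rose in 24 of 25 cases, with a median of 4.97. The exception was the scavenger receptor gene Cd163, at 0.29, chosen after its value was seen. C1qa, a subunit of complement C1q made by macrophages, read 3.07 and 3.72 at day 8 and 11.63 and 11.24 at day 24. The rise was 8.04 ± 0.27 (263-fold), and day 17 had reached 10.92 and 11.01. C1qb and C1qc rose 203-fold and 165-fold, and the lysozyme genes Lyz1 and Lyz2 174-fold and 172-fold. Lyz1 and Lyz2 are near-identical copies, so their signals may not be separate, and other Lyz1 probe sets gave 0.76 and 7.06. Csf1r, the receptor for macrophage colony-stimulating factor, read 6.94 and 6.98 at day 8, 11.81 and 11.78 at day 17, and 11.48 and 11.12 at day 24, so that both day 24 arrays lay below day 17. The lipopolysaccharide co-receptor gene Cd14 rose 93.6-fold. Ptprc, the leukocyte antigen CD45, rose by 3.66 on the probe set used and by 0.33 on the other.

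Chemokines and cytokines rose in 26 of 28 cases and none fell, with a median of 2.50. Cxcl5, a neutrophil attractant, read 3.17 and 2.78 at day 8 and 10.37 and 10.68 at day 24 (188-fold, adjusted p = 2.12e-11). Il6, the inducer of the acute phase response, read 2.01 and 2.04 at day 8, near the bottom of the scale, and 7.85 and 7.76 at day 24. The alarmin gene Il33 rose 95.3-fold, and the monocyte attractants Ccl12, Ccl2 and Ccl7 rose 60.8-fold, 31.7-fold and 27.5-fold. Cxcl9 (0.11) and Tgfb1 (0.24), which did not pass, were the exceptions and were chosen after their values were seen.

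Interferon response and antigen presentation genes rose in 23 of 26 cases and none fell, with a median of 1.64. H2-D1, a class I histocompatibility antigen, read 6.66 and 6.96 at day 8, 9.99 and 9.96 at day 17, and 11.06 and 10.97 at day 24. It rose 18.5-fold, though class I genes are alike in sequence and another probe set gave 0.30. Its light chain gene B2m rose 5.65-fold, the tetherin gene Bst2 14.3-fold and the GTPase genes Gbp2 and Ifi47 11.3-fold and 8.47-fold. Ifit1 and Oasl2, antiviral effectors, rose late. Ifit1 read 4.78 and 4.61 at day 8, 5.63 and 5.11 at day 17, and 7.89 and 7.86 at day 24, and at day 17 Ifit1 and Oasl2 had covered 21.2% and 28.4% of their rise. The genes that did not pass were Ciita (-0.12), Nlrc5 (0.15) and Rsad2 (0.07), chosen after their values were seen.

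The interferon-stimulated response element, searched as TTTC, any 2 bases and TTTC on either strand, was found in 7 of the 20 windows of this list (35.0%) and in 3.13% of the windows of all genes. The 7 were B2m, Bst2, Gbp2, Ifit1, Ifit3, Igtp and Rsad2. The 150 bases before the start are printed for Ifit1 (chr19:34640739-34640888, plus strand), its neighbour in the family Ifit3 (chr19:34583379-34583528, plus strand) and Bst2 (chr8:71537473-71537622, minus strand), with the element in capitals.
Ifit1: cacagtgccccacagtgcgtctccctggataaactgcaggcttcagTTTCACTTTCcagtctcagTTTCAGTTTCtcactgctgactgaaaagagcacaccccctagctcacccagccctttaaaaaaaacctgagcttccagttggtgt
Ifit3: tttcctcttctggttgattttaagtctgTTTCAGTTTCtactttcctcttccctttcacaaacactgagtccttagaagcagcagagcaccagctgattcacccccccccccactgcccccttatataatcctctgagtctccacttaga
Bst2: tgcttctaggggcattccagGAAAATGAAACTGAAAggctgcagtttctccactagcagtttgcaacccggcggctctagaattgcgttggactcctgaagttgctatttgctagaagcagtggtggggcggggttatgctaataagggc
Ifit1 and Bst2 each hold 2 copies, which overlap in Bst2 and read there on the opposite strand, and Ifit3 holds 1. Rsad2, which carries the element, was among the genes that did not pass.

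Fibrillar collagens and other matrix genes rose in 25 of 28 cases, with a median of 1.72. The 3 that fell were Postn, Col5a1 and Fn1, by 2.13, 0.77 and 0.58. Biglycan, Bgn, a small proteoglycan that binds collagen, read 5.98 and 5.99 at day 8 and 12.05 and 12.14 at day 24 (69.3-fold, adjusted p = 6.07e-13). Decorin, Dcn, a related proteoglycan, read 9.13 and 9.06 at day 8 and 13.12 and 13.13 at day 24, and day 17 (13.12 and 12.94) was already at that level. The collagen-binding protein genes Ogn and Thbs2 rose 42.8-fold and 18.1-fold, the crosslinking enzyme gene Lox 39.9-fold and the microfibril gene Mfap5 34.8-fold. Other Lox probe sets gave 0.97 and 5.59. Col1a1 rose 5.54-fold. Col3a1, near the top of the scale at 13.19 on both day 8 arrays, rose by 0.59, and by 0.01 under the housekeeping scaling. Postn, of early mesenchyme and healing wounds, was bright on both days, with a mean of 13.06 at day 8 and 10.94 at day 24. Matrix Gla protein, Mgp, an inhibitor of calcification outside the list, read 4.60 and 4.91 at day 8 and 13.16 and 13.21 at day 24, a 345-fold rise.

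Genes that remodel the matrix rose in 12 of 19 cases and fell in 4, with a median of 1.87. Timp1, an inhibitor of metalloproteinases, read 6.85 and 6.86 at day 8, 9.64 and 9.67 at day 17, and 10.89 and 10.66 at day 24. The protease gene Mmp3 (stromelysin) read 3.37 and 3.27 at day 8 and still 3.63 and 3.61 at day 17, then 7.48 and 7.54 at day 24. Mmp13, a collagenase, took the same course, with 2.57 and 2.56 at day 17 and 6.08 and 4.66 at day 24. Adamts5 rose by 3.05 and Adam12 fell by 2.65. Basement membrane genes rose in 9 of 15 cases and fell in 1 (Nid1, -0.26), with a median of 0.55 that was -0.03 under the housekeeping scaling. Lama5 rose by 1.71, Col4a2 by 1.62 and Col4a1 by 1.41.

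Skeletal muscle genes rose in 20 of 24 cases and none fell, with a median of 3.14. Myog, the factor that commits myoblasts to fusion, read 4.39 and 3.92 at day 8 and 9.72 and 9.82 at day 24 (5.62 ± 0.50, 49.1-fold, adjusted p = 2.55e-06). At day 17 it read 7.24 in the control and 9.76 with KGF, further apart than the arrays of day 8 or of day 24. Fast troponin C, Tnnc2, rose 97.3-fold, the myosin light chain genes Myl1 and Mylpf 90.3-fold and 64.6-fold, and the embryonic and perinatal myosins Myh3 and Myh8 55.9-fold and 47.1-fold. Tnnc2, Myl1, Mylpf and Myh3 each read higher with KGF at day 17, by between 2 and 3 log2 units, and differed little between the day 24 arrays. The list median by array was 4.59 and 4.42 at day 8, 5.54 and 6.93 at day 17, and 6.93 and 6.95 at day 24.

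Cardiac and smooth muscle genes did not move as a block. Of 22 cardiac genes 12 rose and 7 fell, with a median of 0.41 that was -0.17 under the housekeeping scaling. Sln, sarcolipin of atrial and slow muscle, rose 28.2-fold, though another probe set gave 0.04. The calcium store protein gene Casq2 rose 11.5-fold, phospholamban, Pln, 5.94-fold and cardiac troponin I, Tnni3, 5.52-fold. The atrial myosin light chain gene Myl7 was bright on all arrays, at 11.16 and 11.17 against 11.27 and 11.19, and did not pass. Myh6 rose by 0.58, and by 0.00 under the housekeeping scaling. Of the heart factors Tbx5 fell by 1.57, but a separate probe set gave -0.14. Of 15 smooth muscle genes 8 rose and 3 fell, with a median of 0.62, or 0.04 under the housekeeping scaling. Mylk, the myosin light chain kinase, rose 28.1-fold and enteric actin, Actg2, 4.39-fold, while smooth muscle actin, Acta2, fell from a mean of 13.03 to 12.14 (-0.88 ± 0.10). The size of the Acta2 fall depended on the probe set, since others gave -2.08 and -0.008.

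Epithelial genes rose, and those of stratified and secretory epithelia more than the general ones by list median. Of 25 general epithelium genes 19 rose and 4 fell (Grhl3, Cdh3, Cldn6 and Krt8), with a median of 1.10. E-cadherin, Cdh1, read 9.60 and 9.79 at day 8 and 10.57 and 10.90 at day 24, a rise of 1.04 ± 0.07, and Epcam rose by 1.44 ± 0.07. Ehf, an epithelial ETS factor, read 2.40 and 3.37 at day 8 and 8.03 and 8.82 at day 24 (46.7-fold), and its other probe sets gave between 0.33 and 3.84. The keratins of simple ducts Krt7 and Krt19 rose 13.5-fold and 8.01-fold. Of 19 stratified epithelium genes 16 rose and none fell, with a median of 2.26. Krt6a, of activated and palatal epithelium, rose 50.5-fold, from 3.22 and 3.95 to 9.56 and 8.93. The oesophageal keratin gene Krt4 rose 34.7-fold, the cornified envelope gene Sprr1a 32.0-fold, and the basal keratins Krt15, Krt14 and Krt5 23.1-fold, 18.2-fold and 6.07-fold.

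Airway secretory genes rose in 19 of 22 cases and none fell, with a median of 3.33. Cbr2, a carbonyl reductase of club cells, read 4.49 and 3.76 at day 8 and 10.57 and 11.68 at day 24 (128-fold, adjusted p = 6.51e-07). Lactotransferrin, Ltf, rose 146-fold, the club cell oxidase Cyp2f2 95.1-fold, the antibacterial lectin gene Reg3g 94.5-fold and the mucin Muc4 82.5-fold. Other Muc4 probe sets gave 0.31 and 3.54. The other lectin gene of the family, Reg3b, read 2.37 and 2.45 at day 8 and 10.31 and 10.49 at day 24. Scgb1a1, the club cell secretory protein, lay at 3.87 and 4.71 at day 8, 3.83 and 4.42 at day 17, and 5.95 and 8.34 at day 24, so that its rise of 2.86 ± 0.37 came after day 17. The list median was higher with KGF on the day 24 arrays, 8.71 against 7.17 in the control, and 4.44 against 4.42 at day 8.

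Motile cilium genes rose in 12 of 23 cases and fell in 1 (Tubb4b, -0.30, chosen after its value was seen), with a median of 0.49, or -0.09 under the housekeeping scaling. Dynlrb2, a dynein light chain, read 3.40 and 2.81 at day 8 and 6.70 and 8.32 at day 24 (21.2-fold). Foxj1, the factor that drives motile ciliogenesis, read 4.90 and 4.86 at day 8 and 5.87 and 7.14 at day 24. Tppp3 rose by 2.30 and Cfap126, of the axoneme's surroundings, by 2.27.

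Of the alveolar type II list 14 of 22 genes rose and 3 fell (Lpcat1, Scd1 and Fasn, all of lipid synthesis), with a median of 1.26. Sftpd, which encodes surfactant protein D, read 5.55 and 4.70 at day 8, 7.25 and 7.87 at day 17, and 10.29 and 11.19 at day 24. Its rise was 5.62 ± 0.38 (49.1-fold, adjusted p = 2.76e-07), and the gene is also made by other mucosal epithelia. Sftpc, whose product is the type II cell's own surfactant protein C, read 4.34 and 4.13 at day 8 and 5.29 and 6.89 at day 24. The day 24 values lay above those of day 8, by 1.85 ± 0.46 (adjusted p = 0.00529), and the other probe set gave -0.09. The call was lost without the day 8 KGF array (0.92, adjusted p = 0.0645) and without the day 24 KGF array (1.66, adjusted p = 0.0530), as well as with no KGF term and with a robust prior. Sftpb stood at 5.10 and 5.70 against 5.81 and 5.85 and did not pass (0.44 ± 0.22, adjusted p = 0.127), nor did Sftpa1 (0.15, chosen after its value was seen).

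The largest rises of that list were those of genes that other cells also make. Lyz2 is shared with the macrophage list and Il33 with the cytokine list, and Chil1, a chitinase-like protein of macrophages and epithelia, rose 40.8-fold, Dram1 28.8-fold and the lipid receptor gene Cd36 18.5-fold. The part of macrophages in these rises was not tested. Of 20 lung and foregut transcription factors 6 rose and 7 fell, with a median of 0.06 that was negative under the housekeeping and quantile scalings and in the additive fit. Nkx2-1, the lung and thyroid lineage factor, read 4.71 and 4.45 at day 8 and 4.83 and 4.57 at day 24 (0.12 ± 0.19, adjusted p = 0.640), below the median of the table on all of them. The mesenchymal Foxf1 fell by 1.96 (-0.43 on its other probe set) and Foxp1 by 2.17, while Sox21 rose by 1.74. Of 16 alveolar type I genes 12 rose and 2 fell (Rtkn2 and Akap5), with a median of 1.68. Caveolin, Cav1, also of fibroblasts and vessels, rose 13.3-fold, and the water channels Aqp5 and Aqp1 12.3-fold and 9.36-fold. Aqp5 read 4.50 and 4.12 at day 8 and 7.60 and 8.26 at day 24. Hopx rose by 3.01, while Ager, the receptor by which type I cells are often recognised, stood at -0.29, did not pass, and was chosen after its value was seen.

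Genes of the stomach and intestine rose in 22 of 33 cases and fell in 1, with a median of 1.03. Cym, chymosin of the newborn stomach, read 3.89 and 4.02 at day 8, 12.47 and 12.42 at day 17, and 11.49 and 10.83 at day 24. Its peak lay at day 17 on both arrays, and day 24 was 147-fold above day 8. The enterocyte fatty acid carrier gene Fabp1, also of liver, rose 64.9-fold, and the gastrokine genes Gkn2 and Gkn1 20.4-fold and 10.5-fold. The goblet cell gene Spink4 rose 18.7-fold. Cdx2, a factor of hindgut and trophoblast, fell 5.40-fold, from 7.20 and 7.17 to 4.72 and 4.78.

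Liver and yolk sac genes rose in 19 of 30 cases and fell in 6, with a median of 1.04. Albumin, Alb, read 4.53 and 4.66 at day 8, 11.89 and 11.53 at day 17, and 10.57 and 10.52 at day 24, a 61.8-fold rise with the highest values at day 17. The fibrinogen chain genes Fgg and Fga rose by 4.32 and 3.90 on the log2 scale, and the apolipoprotein genes Apoa4, Apoa2 and Apoc3 19.6-fold, 11.8-fold and 8.33-fold. Genes that the visceral endoderm also makes were bright from the start. Afp rose by 1.95, from 10.50 and 10.81 to 12.64 and 12.57, while Ttr, at 11.95 and 11.69 against 11.81 and 11.67, and Apoa1, at 9.62 and 9.77 against 10.12 and 9.92, did not pass. Of trophoblast genes 9 rose and 3 fell of 15, with a median of 0.53 that was -0.05 under the housekeeping scaling. Plac1 fell by 3.31 and Rhox5 rose by 1.94.

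Neuronal genes rose in 16 of 25 cases and fell in 2, with a median of 0.82. Tubb3, the neuronal tubulin, read 4.91 and 4.89 at day 8 and 6.95 and 6.30 at day 24, and Stmn2, a growth cone protein, rose by 1.90 ± 0.13. The migrating neuron gene Dcx rose by 2.51 and Scg2 by 2.82, while Isl1, also of early heart and foregut, fell by 2.55. Of 14 neural progenitor genes 4 rose and 2 fell. Zic1 read 4.06 and 3.37 at day 8 and 8.87 and 8.89 at day 24, with day 17 at the same level. Of 14 glial and neural crest genes 6 rose and 1 fell. Aqp4, a water channel of astrocytes that is also present in gastric and airway epithelium, read 2.84 and 2.52 at day 8 and 8.45 and 9.20 at day 24 (70.6-fold). Of 8 melanocyte genes 3 rose, led by Mlana (2.21). The pigment enzyme genes Tyr and Dct did not pass, and the rise of Tyrp1 (0.45) did not hold without any 1 of the 4 compared arrays.

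Adipocyte genes rose in 10 of 14 cases and none fell, with a median of 0.72. Fabp4, a fatty acid carrier of adipocytes, macrophages and capillaries, read 2.86 and 2.75 at day 8 and 11.84 and 11.51 at day 24 (469-fold, adjusted p = 1.19e-13). Its other probe sets gave between 0.82 and 8.01. The adipogenic factors Cebpa and Pparg rose by 2.56 and 2.22. Adipoq, the hormone of mature adipocytes, read 2.53 and 2.58 at day 8, and 6.55 in the control but 2.99 with KGF at day 24. Only the day 24 control array was high, and without it the difference was 0.28 (adjusted p = 0.661) instead of 2.21 ± 0.82 (adjusted p = 0.0403). The call was also lost without either day 8 array. Of 21 cartilage and bone genes 6 rose and 6 fell. Col9a1 fell by 4.22 (-0.48 on its other probe set) and Hapln1, a link protein of hyaluronan, by 2.81, while Dmp1 of bone rose by 2.78. Of 16 pancreas and kidney genes 4 rose and 1 fell, and Cela1, an elastase, rose by 2.40.

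Hypoxia and glycolysis genes rose in 14 of 20 cases and fell in 2 (Slc2a1 and Hk2, which import and trap glucose), with a median of 0.43, or -0.15 under the housekeeping scaling. Carbonic anhydrase 9, Car9, read 3.74 and 3.58 at day 8, 7.55 and 7.27 at day 17, and 8.95 and 9.36 at day 24 (45.1-fold). Adm, adrenomedullin, rose 21.2-fold and the oxygen sensor Egln3 9.59-fold. Vegfa rose by 1.24, mostly after day 17. Respiratory chain genes had 11 higher and 4 lower of 23, with a median of 0.17, or -0.41 under the housekeeping scaling. The largest rises were those of the muscle forms Cox8b (3.37), Cox6a2 (2.87) and Cox7a1 (2.24). Ribosomal protein genes, of which 2 rose and 3 fell of 15, differed by at most 0.24 among those called, and the 2 that rose, Rpl7 and Rplp0, lay below 0 under the housekeeping scaling.

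Of the Hox genes of groups 1 to 4, 5 of 10 fell and 1 rose (Hoxa3), with a median of -0.47. Hoxa3 rose by 0.58, and its other probe sets gave between 0.10 and 0.26. Its call was lost without either control array and with probe sets averaged (0.29). It was also lost under the quantile (0.21) and housekeeping (0.0005) scalings. Hoxb2 read 9.76 on both day 8 arrays and 7.48 and 7.67 at day 24, and Hoxd1 fell by 2.18. Hoxb6 fell by 1.89 and Hoxc8 by 1.27 in the middle groups, where 4 of 9 fell and 1 rose. Hoxa5, the one that rose, did so by 0.46, and by 1.26 on its other probe set. It passed in the deposited scaling only, with 0.19 under the quantile scaling and -0.12 under the housekeeping scaling. Its call was also lost without any 1 of the 4 compared arrays. Of the 14 genes of groups 9 to 13, 2 fell, among them Hoxd9 by 1.09, and 1 rose.

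Aldh1a1, a retinaldehyde dehydrogenase, and Steap4, a metalloreductase induced in inflammation, complete the 15 largest rises. Aldh1a1 read 3.71 and 3.49 at day 8 and 11.47 and 11.32 at day 24 (222-fold), and Steap4 3.12 and 3.04 at day 8 and 10.55 and 10.74 at day 24 (189-fold).

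The arrays of day 17 place the changes in time, as a description. Of the 2095 genes at least 2-fold higher, the median had covered 76.2% of its change by day 17, and 1730 (82.6%) had covered at least 50%. Of the 1532 at least 2-fold lower, the median had covered 62.7%, and 1123 (73.3%) at least 50%. Day 17 lies nearer to day 24 than to day 8, so a change at a steady rate would also have passed 50% by then. At day 17, 366 of the rising and 113 of the falling genes had met or passed their day 24 level. Macrophage genes as a list stood at 9.71 and 9.81 at day 17 and 10.20 and 9.82 at day 24. The complement and acute phase list went from 8.50 and 8.74 at day 17 to 10.50 and 10.87, and the mitosis list from 8.22 and 8.15 to 6.95 and 6.92.

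**Figure D4:**
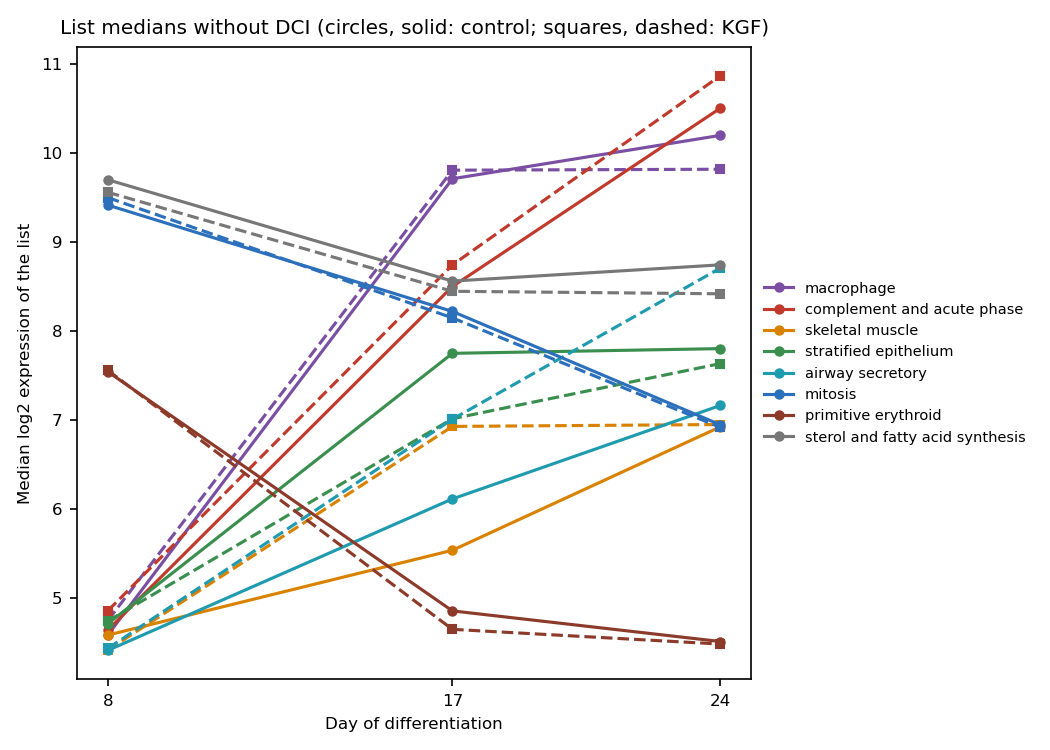
Lines join the median log2 expression of each gene list at days 8, 17 and 24, with circles and solid lines for control arrays and squares and dashed lines for KGF arrays, 1 array per point. Macrophage and erythroid lists level off after day 17, mitosis and acute phase lists go on changing, and the skeletal muscle list differs between control and KGF at day 17.

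In limma the change from day 8 to day 24 differed between the KGF pair and the control pair for 9 genes (0.0495%). That fit had 2 residual degrees of freedom. Its spread came only from the day 17 arrays without DCI and the arrays with DCI, and none came from the 4 arrays compared. Of 18193 genes tested, 1604 had an unadjusted p under 0.05. Without a mean trend none of the 9 was called (adjusted p = 0.628 for each). The median SE of that difference was 0.26, wider than for the mean change. Of the 9, 4 rose more with KGF, all of them secreted products of airway or glandular epithelium. Bpifa1, an airway defence protein, read 3.05 in the day 8 control and 3.38 with KGF, then 5.70 and 10.17 at day 24. The KGF effect was thus larger at day 24 by 4.14 ± 0.35 (adjusted p = 0.00534), and at day 17 the 2 arrays stood at 6.51 and 10.38. Wfdc18 differed by 2.52 ± 0.19 (adjusted p = 0.00376), from 5.45 and 4.85 at day 8 to 9.08 and 10.99 at day 24. The lung chemokine gene Cxcl15 differed by 2.83 ± 0.35 and the mucosal chemokine gene Cxcl17 by 1.78 ± 0.23, and the other Cxcl15 probe set gave 0.92. After a second quantile normalization the limma calls of Cxcl15 (adjusted p = 0.0717) and Cxcl17 (0.122) were lost, and with a robust prior that of Bpifa1 (0.0506).

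The other 5 genes, Arpc4, Txndc5, Thbs1, Dctn5 and Echs1, had a lower value on the day 8 control array than on the other 5 arrays without DCI. Arpc4, of the actin-branching complex, read 8.73 there, 10.08 on the day 8 KGF array and between 10.19 and 10.34 on the later ones. Its difference was -1.45 ± 0.15 (adjusted p = 0.0123). Txndc5, a disulphide isomerase, read 8.80 there and between 10.13 and 10.15 on the other arrays without DCI. The other probe sets gave -0.26 for Arpc4, -0.02 for Txndc5, -0.12 for Thbs1 and 0.22 for Dctn5. This was the array whose 3′ minus 5′ control signals stood apart, and the part of that in these 5 results was not tested.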

How the data were processed

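Total RNA was the starting material for 10 Affymetrix arrays, 1 for each condition, and biotin was the label. The authors deposited a table of log2 values with 45101 probe sets, and the tool was RMA, per the submitters' processing notes. Its version and the set of arrays normalised in one run are not given in the sources used. RMA makes the arrays' distributions alike, so a shift of most genes would be removed, and differences of dim or very bright genes are understated. For array data, the number of arrays limits the precision.

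By the platform annotation 34945 probe sets had 1 gene symbol, 932 several, 9160 none and 64 were controls. For each of 18193 genes the probe set brightest on average across the 10 arrays was used, without a filter on low values. Limma 3.58.1 (R 4.3.3) fitted 5 levels of day and DCI plus KGF on all 10 arrays, with 4 residual degrees of freedom, and eBayes with a mean trend. The day 24 minus day 8 contrast then equals the mean of the 2 KGF-matched pairs, and arrays of the other levels add only to the spread. Benjamini-Hochberg adjustment ran over all genes, and a gene was called under 0.05. A second model gave day 8 and day 24 KGF terms of their own. The scripts were tested on simulated data.

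The 47 lists (985 genes, 902 measured) and the comparison itself were chosen with earlier results of these data known. Text draws on the 15 largest rises and falls that moved alike in both pairs and reached the table's median of 5.27 in either day's mean. Clone and accession names were left out. It also draws on the 6 members of each list that differed most, a fixed set of lineage genes, and the 5 largest KGF-by-day differences each way. Not every such list member or fixed-set gene is printed, and those printed were picked with their values known. Any other gene named, such as the members of a list that went against it, was chosen after its value was seen. The sets drawn on for the day 24 minus day 8 difference held 146 called genes with several probe sets. Of these, 72 had another with under 0.5 times the change or the opposite sign, and 10 the opposite sign. Promoter windows came from RefSeq (GRCm38.p6). Alternatives are in the closing section. Plots were made in Python 3.11.15 with matplotlib 3.10.9.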

Additional observations from a re-analysis of the deposited data

Results flagged for a closer look

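For 9 genes the change from day 8 to day 24 differed between the KGF pair and the control pair of arrays, by a test of that difference in limma. The KGF effect at day 24 minus that at day 8 was 4.14 for Bpifa1, 2.83 for Cxcl15, 2.52 for Wfdc18 and 1.78 for Cxcl17. It was -1.45 for Arpc4, -1.35 for Txndc5, -1.27 for Thbs1, -1.23 for Dctn5 and -1.17 for Echs1. The last 5 were low on the day 8 control array and alike on the other arrays without DCI, except that Thbs1 also rose with time on the KGF arrays, from 9.26 to 11.37.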

How the results depend on the processing

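In the fits of 4 and of 6 arrays, without a KGF term, without a mean trend and with a robust prior the differences themselves are the same by construction, and 8889, 9147, 9516, 9378 and 9762 of the 9824 calls were shared. Each of the 9824 kept its direction in the additive fit (9410 still called), after a second quantile normalization (8758) and without any 1 of the 4 compared arrays (8159 to 8638). With probe sets averaged 9687 did so (8707 called), and under the housekeeping scaling 8469 (7605 called), with 2225 genes higher and 11858 lower. All of these fits reuse the arrays on which the calls were made. That favours a kept direction, which is no replication. Leaving out 1 compared array gave 8313 to 9141 calls, 3936 to 4228 higher and 4302 to 4938 lower. Every probe set tested by itself gave 16623 calls, 7183 higher and 9440 lower, and a 2-fold change in addition 3627, 2095 higher and 1532 lower. Under the housekeeping scaling Tnnt2 was at -0.085, Hoxa5 at -0.12, Hoxd11 at -0.13, Tyrp1 at -0.13, Nphs1 at -0.048, Six2 at -0.15, Ppargc1a at -0.10, Cox4i1 at -0.21, Rpl7 at -0.34 and Rplp0 at -0.39, all above 0 as deposited. With probe sets averaged per gene Ywhaz was at 0.16 instead of -0.43. The housekeeping scaling turned the sign of 15 of 47 list medians. The KGF-by-day count of 9 was 0 without a mean trend and 2 at an adjusted p under 0.01. That fit is saturated for the 4 arrays, so none could be left out. The labels give no replicate numbers; the KGF term matched the arrays of the 2 days, and the fit without it, which leaves that pairing out, gave 9575 calls. In all of these the cause was not tested. Signal over background sets the smallest value an array can show, so changes that reach it are understated.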
